A study of Homo sapiens with 8 samples.

Results

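The genes of the bone morphogenetic protein (BMP) and transforming growth factor beta (TGF-beta) pathway were examined in D283-OMO cells with and without induction of OMOMYC. Members were the protein-coding genes whose symbol names a BMP, growth differentiation factor (GDF), TGF-beta, inhibin, activin or nodal chain, one of their receptors, a SMAD, an inhibitor of DNA binding (ID) factor, a latent TGF-beta binding protein (LTBP), or a secreted antagonist or pseudoreceptor of the pathway such as NOG, CHRD, GREM1, FST, FSTL3 and BAMBI. This rule used no measured value, but it was chosen with earlier results of these data known. It found 65 of the 19934 protein-coding genes and of the 60668 genes counted in all. D283 Med is an established human medulloblastoma line, and D283-OMO is a hygromycin-selected stable population of it that carries a lentiviral, doxycycline (DOX)-inducible, Flag-tagged OMOMYC, a dominant negative derivative of MYC that dimerizes with MYC and MAX and occupies E-boxes in their place. PolyA+ RNA was sequenced from 4 untreated libraries (OMO) and 4 libraries of cells treated with DOX for 72 h (OMO+DOX). Both groups carry the transgene, and no library of DOX-treated wild type cells was analysed here, so an effect of DOX itself and an effect of OMOMYC cannot be told apart.

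Ligands of this family are secreted dimers that bring type I and type II serine/threonine kinase receptors together on the cell surface. BMP receptors phosphorylate SMAD1, SMAD5 and SMAD9, whereas TGF-beta, activin and nodal receptors phosphorylate SMAD2 and SMAD3, and both sets enter the nucleus with SMAD4. The ID genes are the best known direct targets of the BMP branch, and the inhibitory SMADs, noggin and BAMBI are induced by the pathway and restrain it. In the developing cerebellum, BMP ligands are known to oppose the proliferation of granule cell progenitors.

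RefSeq promoter windows (GRCh38.p14, from 250 bases before to 50 after an annotated start) were matched by symbol to 56 of the 65 members, with 92 windows, since some genes have several starts. Members without an entry included ACVRL1, BMP1, BMP2, BMP3, BMP7, GDF6, INHBE and NOG. The E-box CACGTG, to which MYC and MAX bind, was present in 7 of the 92 member windows (7.61%) and in 7.26% of all 35116 windows. These 7 windows belonged to ACVR1B, BMP4, SMAD1, SMAD3, SMAD9, TGFB2 and TGFB3. The GC-rich SMAD1 and SMAD5 element GGCGCC was present in 26.1% of member windows and 19.2% of all windows, with 17.4% among members higher with DOX and 21.4% among members lower with DOX. The SMAD palindrome GTCTAGAC was found in the SMAD6 window alone (1.09% of member windows, 0.202% of all windows). These 3 motifs read the same on both strands and do not overlap each other. The letters TATAA and CCAAT, searched on both strands after the sequences had been seen, were present in 20.7% and 35.9% of member windows and in 20.4% and 34.6% of all windows. The 250 bases before the start are printed 5′ to 3′ for the ID family, which rose together, and for the windows of SMAD6 and TGFB3 that hold the SMAD palindrome and an E-box. Capitals mark a match to any of the 5 motifs.
ID1, chr20:31605039-31605288, plus strand: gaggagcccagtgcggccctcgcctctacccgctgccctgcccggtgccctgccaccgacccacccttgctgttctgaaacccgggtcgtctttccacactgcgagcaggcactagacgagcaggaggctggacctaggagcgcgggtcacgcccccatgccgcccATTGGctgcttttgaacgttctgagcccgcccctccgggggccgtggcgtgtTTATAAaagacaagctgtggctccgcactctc
ID2, chr2:8681806-8682055, plus strand: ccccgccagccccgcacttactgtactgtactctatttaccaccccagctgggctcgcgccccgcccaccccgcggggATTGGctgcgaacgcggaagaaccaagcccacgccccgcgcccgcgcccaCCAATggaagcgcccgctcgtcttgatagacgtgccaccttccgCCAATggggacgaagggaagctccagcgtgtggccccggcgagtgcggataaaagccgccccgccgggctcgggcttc
ID3, chr1:23559502-23559751, minus strand: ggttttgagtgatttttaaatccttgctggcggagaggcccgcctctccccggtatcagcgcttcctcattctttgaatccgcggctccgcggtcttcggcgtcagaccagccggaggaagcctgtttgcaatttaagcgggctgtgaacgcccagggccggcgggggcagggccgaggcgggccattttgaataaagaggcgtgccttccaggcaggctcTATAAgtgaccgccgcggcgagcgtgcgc
ID4, chr6:19837120-19837369, plus strand: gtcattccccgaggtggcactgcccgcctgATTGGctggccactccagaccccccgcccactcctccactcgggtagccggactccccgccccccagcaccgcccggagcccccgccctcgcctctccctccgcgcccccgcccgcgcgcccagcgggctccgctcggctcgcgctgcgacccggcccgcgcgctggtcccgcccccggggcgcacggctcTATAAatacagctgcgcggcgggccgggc
SMAD6, chr15:66701986-66702235, plus strand: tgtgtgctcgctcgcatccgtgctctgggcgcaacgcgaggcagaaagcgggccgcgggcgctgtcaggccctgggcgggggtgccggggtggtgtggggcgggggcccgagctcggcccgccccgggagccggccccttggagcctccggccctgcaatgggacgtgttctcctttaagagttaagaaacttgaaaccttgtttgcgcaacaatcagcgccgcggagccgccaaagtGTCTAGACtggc
TGFB3, chr14:75983012-75983261, minus strand: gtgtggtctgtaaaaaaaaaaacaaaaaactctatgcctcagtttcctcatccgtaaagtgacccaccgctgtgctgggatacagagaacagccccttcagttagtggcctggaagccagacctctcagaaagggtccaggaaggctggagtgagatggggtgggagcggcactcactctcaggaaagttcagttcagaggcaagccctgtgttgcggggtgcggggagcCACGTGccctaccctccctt
In the ID1, ID3 and ID4 windows TATAA began 31, 29 and 29 bases before the start, and the ID2 window held CCAAT or its reverse complement at 3 places and no TATAA. None of the ID windows held the E-box or either SMAD motif. The palindrome of SMAD6 began 12 bases before its start, and the E-box of TGFB3 began 20 bases before the start shown.

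Total expected counts per library ran from 46592947 to 54020506 in OMO and from 38390696 to 49249167 in OMO+DOX, and 93.6% of the variance lay on the principal component that separated the groups. Reads of OMOMYC cannot be told from MYC reads, and MYC stood at 937 ± 75.5 CPM (counts scaled to the library's effective size, SD, n = 4) in OMO and 1120 ± 56.6 CPM in OMO+DOX. The known MYC targets CAD and NCL fell by 0.48 and 0.44 on the log2 scale. The line's markers were present, OTX2 at 1046 ± 17.3 CPM without and 509 ± 1.78 CPM with DOX. The summed level of 7 such markers, which include MYC, fell from 2657 to 2759 CPM without to 1672 to 1809 CPM with DOX. Of these 7, OTX2, CRX, NRL, IMPG2 and NEUROD1 fell, NRL the most (log2FC -3.55). EYS (log2FC 0.23) and MYC (log2FC 0.26) rose, so the sum also holds reads that cannot be told from OMOMYC. Of 6 fibroblast markers, summed at 35.1 to 37.5 CPM in OMO and 55.6 to 68.9 CPM in OMO+DOX, COL1A1 and PDGFRB were tested. PDGFRB rose (log2FC 1.58) and COL1A1 was not called (log2FC 0.09, adjusted p = 0.211). Of the untested ones, COL3A1 went from at most 1 count in OMO to 13 to 18 in OMO+DOX. DCN went down from 21 to 36 counts to at most 1, COL1A2 from 7 to 15 to at most 2, and LUM from 1 to 9 to at most 2. Of 4 endothelial markers, summed at 3.06 to 4.05 and 5.37 to 6.14 CPM, KDR and CDH5 were higher with DOX, CDH5 from 0 counts in every untreated library, and VWF fell. Both KDR and CDH5 were tested only because they exceeded the low-count filter in the treated libraries, which fixed their direction. Immune markers summed to 0.637 to 0.811 CPM in OMO and 1.10 to 1.44 CPM in OMO+DOX, and none of the 5 was tested. Of the 3 neuronal progenitor markers tested, SOX11 rose from 22.3 to 114 CPM and carried a rise in the summed level of all 5 (94.8 to 99.9 CPM in OMO, 154 to 165 CPM in OMO+DOX), while DCX (log2FC -1.96) and ZIC1 (log2FC -0.41) fell. The 3 astrocyte markers summed to at most 0.774 CPM in any library. Of the oligodendrocyte markers MOG had 0 counts in every library and MBP at most 12. The part of these markers in the results below was not tested.

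Of the 65 members, 48 passed a filter of more than 1 CPM in at least 4 of 8 libraries and were tested among 15222 genes with edgeR's quasi-likelihood test and Benjamini-Hochberg adjustment over all genes tested, which gave every adjusted p below. At an adjusted p below 0.05, 30 members (62.5%) were higher with DOX, beside 38.5% of all genes tested, and 12 (25.0%) were lower, beside 38.1% of all genes. With an absolute log2 fold change (log2FC) of at least 1 added, 14 members were higher (29.2%, all genes 11.0%) and 6 were lower (12.5%, all genes 9.81%). In either direction 42 members passed the first threshold (87.5%, all genes 76.6%) and 20 passed both (41.7%, all genes 20.9%). The study's methods name an adjusted p below 0.001 and an absolute log2FC above 2, while its results state a looser limit for the first. At the thresholds of the methods, BMP2, BMP3 and BMP5 were higher (all genes 4.38%) and INHBC and INHBE lower (all genes 2.75%). That made 5 in either direction (10.4%, all genes 7.12%). The median log2FC of the 48 members was 0.48, that of all genes tested 0.01, and the median absolute log2FC was 0.74 against 0.43. The groups of 4 libraries did not overlap for 41 members (85.4%, all genes 71.7%). BMP3, BMP5 and FST passed the filter only through the DOX-treated group, where they were high, so that they had to differ, and the counts describe the members tested and not the whole family. Scaling by library size alone, in place of edgeR's TMM factors, moved the median log2FC of all genes up by 0.126. A negative log2FC within that distance of 0 can therefore change direction with the scaling.

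**Figure D1:**
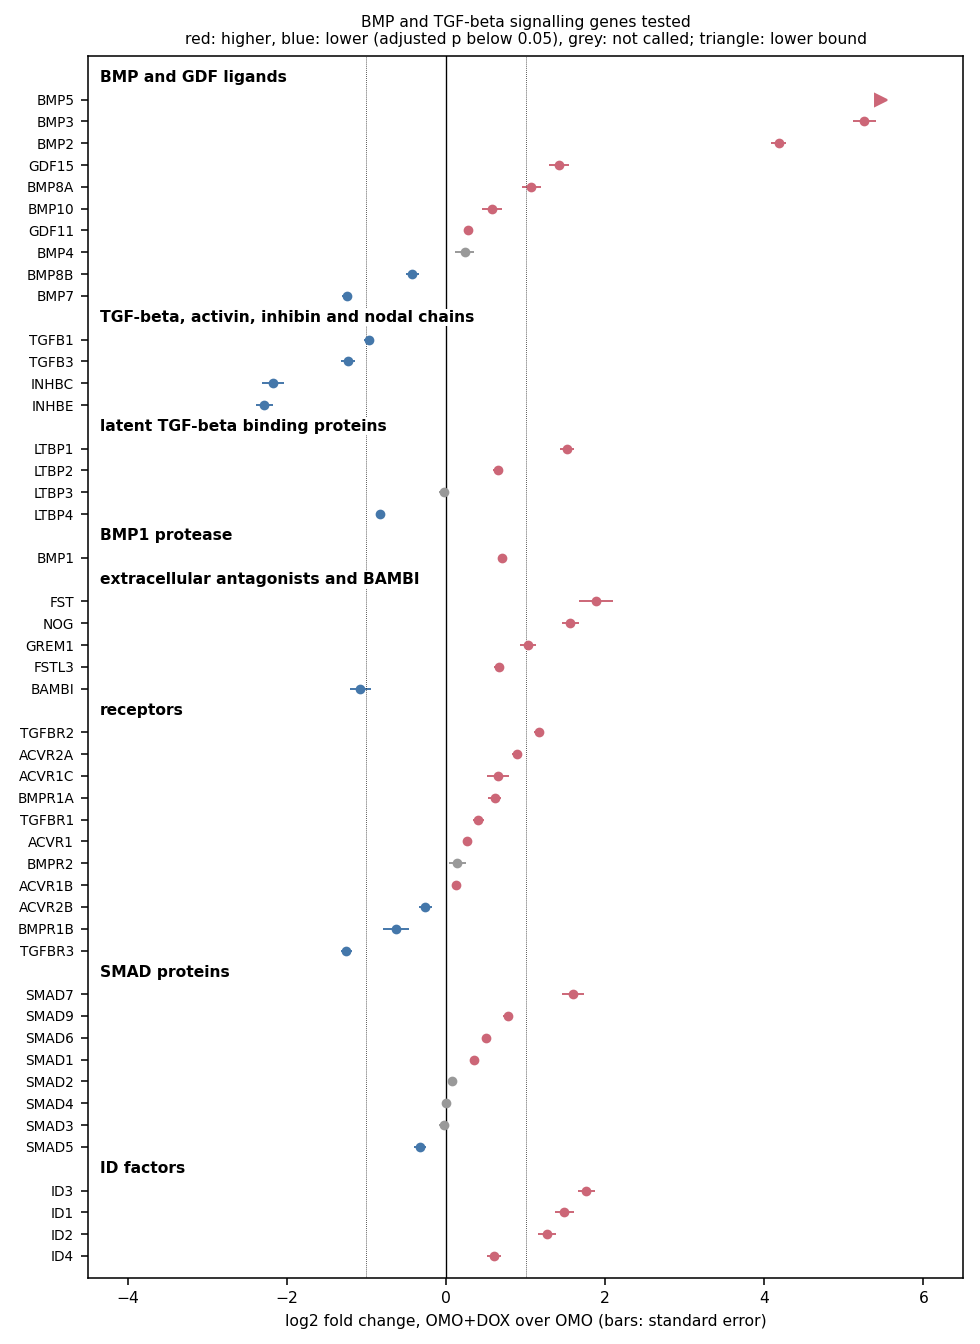
Log2 fold change of OMO+DOX over OMO for the tested members described in the text, grouped by role, with bars for the standard error, red for higher, blue for lower (adjusted p below 0.05) and grey for not called; dotted lines mark a log2FC of 1 in either direction. The 4 TGF-beta and activin chains tested lie left of 0 and the 4 ID factors right of it, and the triangle of BMP5 marks a lower bound because it had 0 counts in every untreated library.

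Among the BMP and GDF ligands, 10 of 20 were tested, of which 7 rose and 2 fell (all genes 38.5% and 38.1%). BMP2, BMP3 and BMP5 rose the most and BMP7, the most abundant BMP transcript without DOX, fell. In bulk RNA, a change in the number of cells that express a gene and a change in RNA per cell cannot be told apart, here and for every gene below. BMP2 (ENSG00000125845.7, chr20:6767664-6780280, plus strand), a potent BMP receptor agonist, was measured at 1.26, 0.985, 0.994 and 0.872 CPM in the 4 OMO libraries and at 19.4, 18.3, 19.0 and 18.2 CPM in the 4 OMO+DOX libraries. Every treated library lay far above every untreated one, and BMP2 was upregulated 18.2-fold (log2FC 4.18, SE 0.09, adjusted p = 6.74e-12). BMP3 (ENSG00000152785.7, chr4:81030965-81057531, plus strand), which unlike BMP2 is known to antagonize BMP and activin signalling, stood at 0.366, 0.193, 0.223 and 0.179 CPM in OMO and at 9.30, 9.07, 9.46 and 9.44 CPM in OMO+DOX. The treated libraries differed little among themselves, and the log2FC was 5.26 (SE 0.15, adjusted p = 4.15e-11). BMP3 passed the filter only through the treated libraries, which fixed its direction. BMP5, a ligand of the BMP7 subgroup, had 0 counts in all 4 OMO libraries and 2.62, 2.91, 3.06 and 2.33 CPM in OMO+DOX. Against a floor of 3 counts per library BMP5 was at least 44.2-fold higher with DOX (adjusted p = 3.28e-08). Like BMP3, BMP5 passed the filter only through the treated libraries, so its direction was fixed.

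BMP7 (ENSG00000101144.13, chr20:57168748-57266629, minus strand) stood at 62.2, 57.6, 60.4 and 59.0 CPM in OMO and at 26.5, 23.3, 24.6 and 26.2 CPM in OMO+DOX. The spread within each group was small beside the gap between them, and BMP7 was downregulated 2.38-fold (log2FC -1.25, SE 0.05, adjusted p = 1.18e-09). Per length, as CPM per kb of transcript, BMP7 made up 83.7 to 84.7% of the summed level of BMP2 to BMP10 in the OMO libraries and 45.1 to 49.1% in the OMO+DOX libraries. BMP2 went from 0.638 to 0.880% of that sum to 17.6 to 18.3%, and BMP3 from at most 0.161% to between 5.37 and 5.73%. The sum itself was lower with DOX, at 36.6 to 39.8 CPM per kb in OMO and 27.8 to 30.2 CPM per kb in OMO+DOX. The ratio of BMP2 to BMP7 CPM within a library, not scaled by length, went from between 0.0148 and 0.0203 to between 0.695 and 0.787. BMP4, the closest relative of BMP2, was at 3.18 ± 0.508 CPM in OMO and 3.73 ± 0.285 CPM in OMO+DOX (SD, n = 4) and was not called (log2FC 0.23, SE 0.12, adjusted p = 0.106). Without OMO replicate 3, BMP4 passed the threshold (log2FC 0.29, adjusted p = 0.0475), and with library size only it did as well (log2FC 0.36, adjusted p = 0.0195), whereas without OMO replicate 2 its log2FC was 0.12 (adjusted p = 0.324).

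**Figure D2:**
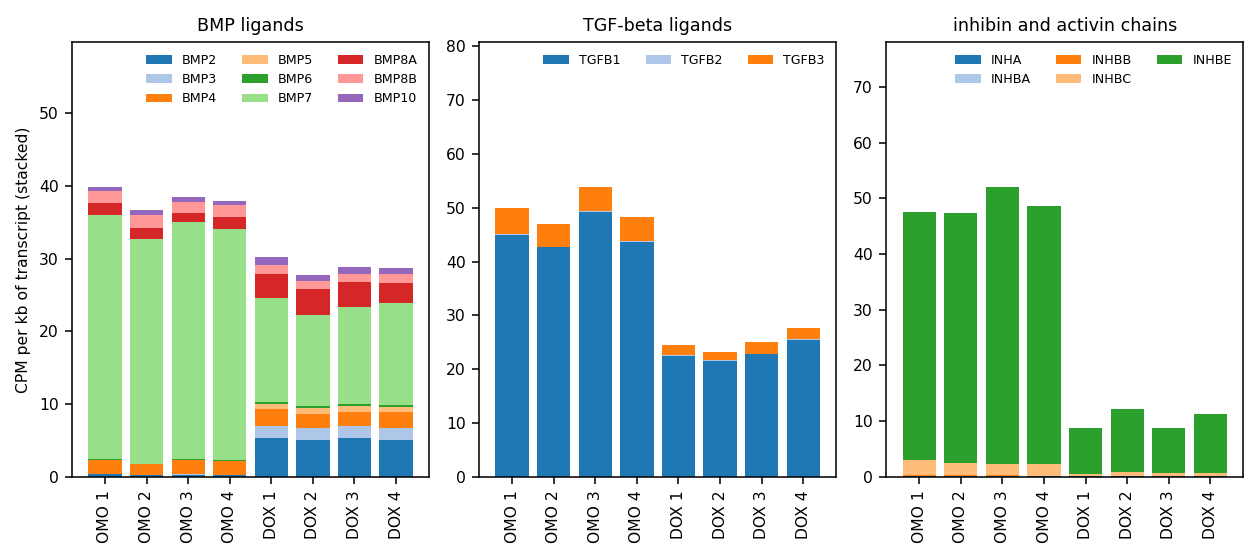
Stacked level of each ligand in each library, in CPM per kb of transcript, for the BMP ligands, the TGF-beta ligands and the inhibin and activin chains (OMO 1 to 4 untreated, DOX 1 to 4 treated). BMP7 fills over 83% of the BMP column without DOX and under 50% with DOX, where BMP2 and BMP3 become visible, and INHBE fills over 92% of the activin column in every library while that column shrinks from at least 47.3 to at most 12.1.

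GDF15, a circulating cytokine induced by cellular stress, was at 14.5, 12.9, 14.9 and 13.4 CPM in OMO and at 29.2, 41.4, 33.3 and 45.1 CPM in OMO+DOX. The treated libraries were spread more widely than the untreated ones, without overlap (log2FC 1.42, SE 0.12, adjusted p = 6.61e-07). GDF11, which acts through activin receptors, rose by a log2FC of 0.28 and BMP10, a cardiac ligand of ALK1, by 0.58, the latter at about 1 CPM. BMP8A was at 2.75, 2.49, 2.23 and 2.95 CPM without and 5.74, 5.89, 5.81 and 4.48 CPM with DOX (log2FC 1.07), while its near-identical copy BMP8B fell (log2FC -0.42). RSEM divides reads between such copies, and the counts of BMP8A were not whole in any library, so that the single values of both genes are uncertain. Their sum was 10.7, 11.0, 9.57 and 10.8 CPM in OMO and 11.7, 11.6, 11.3 and 10.9 CPM in OMO+DOX, and the groups overlapped. BMP1, which despite its name is a metalloprotease that cleaves chordin and procollagen, rose by a log2FC of 0.70 (SE 0.05, adjusted p = 2.43e-07).

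Of the 9 TGF-beta, inhibin, activin and nodal chains 4 were tested. TGFB1, TGFB3, INHBC and INHBE all fell (all genes 38.1%), with a median log2FC of -1.70. INHBE (ENSG00000139269.3, chr12:57452323-57459280, plus strand), the activin E chain best known from liver, was at 108, 109, 121 and 112 CPM in OMO and at 19.7, 27.4, 19.7 and 26.1 CPM in OMO+DOX. INHBE was downregulated 4.86-fold, with the groups far apart (log2FC -2.28, SE 0.11, adjusted p = 2.73e-09). INHBC (ENSG00000175189.4, chr12:57434760-57450828, plus strand), the activin C chain, lies 1494 bases from INHBE and was at 5.21, 4.34, 4.14 and 4.25 CPM without and 0.885, 1.27, 0.917 and 0.922 CPM with DOX. It fell 4.52-fold (log2FC -2.18, SE 0.14, adjusted p = 3.83e-08). The ratio of INHBE to INHBC within a library was 20.7 to 29.2 in OMO and 21.4 to 28.3 in OMO+DOX, so the ranges overlapped. The summed level of the inhibin and activin chains per length went from 47.3 to 52.0 to between 8.67 and 12.1 CPM per kb.

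TGFB1 (ENSG00000105329.10, chr19:41301587-41353911, minus strand) was at 125, 118, 136 and 121 CPM in OMO and 62.2, 59.6, 63.1 and 70.5 CPM in OMO+DOX. It carried at least 90.1% of the summed TGFB1, TGFB2 and TGFB3 level per length in every library, and fell by a log2FC of 0.97 without overlap (SE 0.06, adjusted p = 5.40e-08). TGFB3 (the gene whose E-box window is printed above) stood at 9.26, 8.07, 8.58 and 8.50 CPM without and 3.60, 3.11, 4.06 and 3.84 CPM with DOX. The groups were again apart (log2FC -1.23, SE 0.09, adjusted p = 1.77e-07). TGFB1 shares 215 exonic bases with HNRNPUL1, and TGFB3 163 with TGFB3-AS1, each on the opposite strand, and it is not stated whether reads were counted by strand. In all, 14 of the tested members share exonic bases with a gene on the other strand. The counts of 8 tested members, INHBE, TGFB1, GDF11, BMP8A, ACVR2A, BMPR1A, SMAD4 and SMAD5, were not whole in any library, so that RSEM divided some of their reads with other genes and their levels carry that uncertainty.

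The LTBPs, some of which hold latent TGF-beta in the extracellular matrix, moved in different directions. LTBP4, the most abundant member in OMO on the CPM scale and per length at 557 ± 13.3 CPM in OMO, fell to 314 ± 22.4 CPM (log2FC -0.83, SE 0.05, adjusted p = 6.21e-08). LTBP1 was at 4.48, 4.94, 4.30 and 5.34 CPM in OMO and 14.9, 13.2, 14.4 and 12.2 CPM in OMO+DOX. It rose 2.87-fold (log2FC 1.52, SE 0.09, adjusted p = 2.57e-08). LTBP2 rose by a log2FC of 0.65, and LTBP3 was not called (log2FC -0.02, adjusted p = 0.787). LTBP4 carried 78.9 to 79.2% of the summed LTBP level per length in OMO and 64.7 to 67.7% in OMO+DOX.

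Among the antagonists and pseudoreceptors, NOG, FST, GREM1 and FSTL3 rose and BAMBI fell. NOG, noggin, which binds BMP2, BMP4 and BMP7 and keeps them from their receptors, was at 5.25, 6.47, 7.73 and 6.48 CPM in OMO and 18.6, 18.4, 17.8 and 21.7 CPM in OMO+DOX. Its rise was 2.95-fold (log2FC 1.56, SE 0.11, adjusted p = 8.01e-08). FST, follistatin, which binds activins, was at 0.590, 0.270, 0.345 and 0.492 CPM without and 1.44, 1.72, 1.76 and 1.34 CPM with DOX. FST was low in both groups (log2FC 1.88, SE 0.21, adjusted p = 6.74e-06). It passed the filter only through the treated libraries, which fixed its direction and kept the groups apart. GREM1, gremlin, was at 5.94, 4.71, 4.40 and 5.83 CPM in OMO and 11.2, 11.0, 9.63 and 10.8 CPM in OMO+DOX. It rose by a log2FC of 1.03 (adjusted p = 2.62e-06), and the activin-binding FSTL3 by 0.67 (adjusted p = 1.81e-06). BAMBI, a pseudoreceptor without a kinase domain, was at 7.78, 5.08, 7.34 and 6.53 CPM in OMO and 3.03, 3.48, 3.0 and 3.16 CPM in OMO+DOX. BAMBI fell by a log2FC of 1.08 (SE 0.13, adjusted p = 1.24e-05), opposite in direction to the other feedback genes NOG, SMAD6 and SMAD7.

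**Figure D3:**
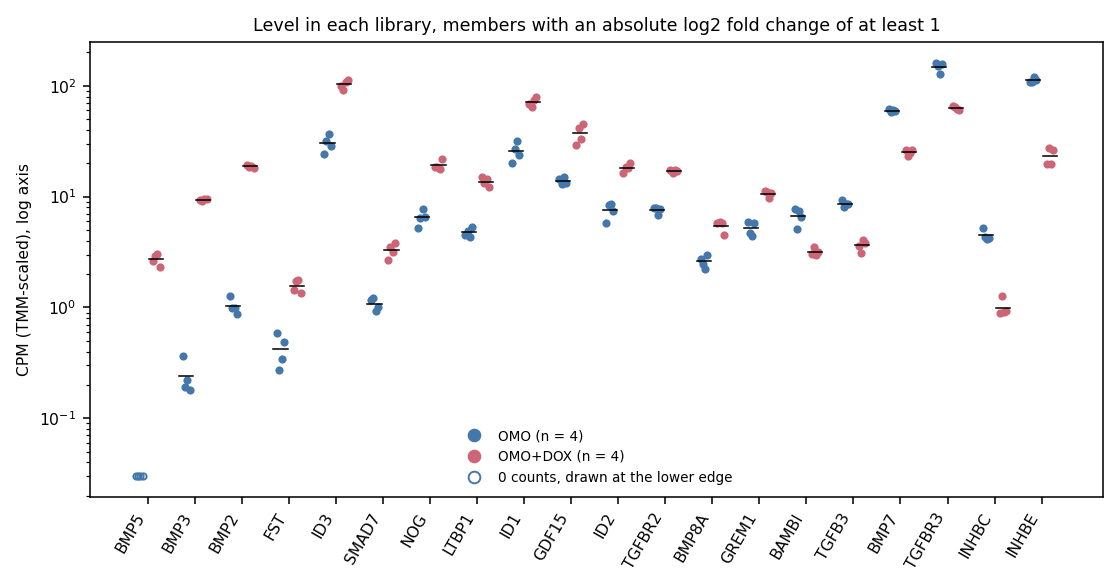
Level of each library, as TMM-scaled CPM on a log axis, for the 20 members with an adjusted p below 0.05 and an absolute log2FC of at least 1, ordered by log2FC, with OMO in blue, OMO+DOX in red and lines at the group means. The groups are apart for each of the 20 members, whose selection by adjusted p and log2FC in these libraries made that likely. For BMP3, BMP5 and FST the low-count filter fixed it, and 71.7% of all genes tested were apart as well. The open circles of BMP5 stand for 0 counts.

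Of the receptors, 11 of 12 were tested, with 7 higher, 3 lower (all genes 38.5% and 38.1%) and BMPR2 not called. TGFBR2, the type II receptor for TGF-beta, was at 7.82, 7.86, 6.79 and 7.80 CPM in OMO and 17.5, 16.2, 17.3 and 17.2 CPM in OMO+DOX. It rose 2.25-fold (log2FC 1.17, SE 0.06, adjusted p = 1.14e-08), more than its type I partner TGFBR1 (log2FC 0.41). TGFBR3, the coreceptor betaglycan, was at 160, 151, 127 and 158 CPM without and 65.6, 63.8, 61.7 and 59.9 CPM with DOX. It was downregulated 2.38-fold (log2FC -1.25, SE 0.07, adjusted p = 1.73e-08). The activin type II receptors moved apart, ACVR2A with a log2FC of 0.89 and ACVR2B with -0.26, and so did the BMP type I receptors BMPR1A (log2FC 0.61) and BMPR1B (log2FC -0.62). The ratio of ACVR2A to ACVR2B within a library went from 0.199 to 0.274 in OMO to 0.480 to 0.550 in OMO+DOX, and that of BMPR1A to BMPR1B from 19.3 to 26.8 to 46.7 to 57.7.

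For receptors near the threshold, the calls moved with the processing. OMO replicate 3 was the lowest untreated library for 9 of the 11 receptors and 7 of the 8 SMADs. It was lowest for 23 of all 48 tested members, and for none of the ID factors. ACVR2B was at 64.1, 59.9, 48.6 and 61.2 CPM in OMO and 50.3, 51.8, 48.9 and 44.3 CPM in OMO+DOX, and replicate 3 lay among the treated values. Its adjusted p was 0.0129, but the groups overlapped (exact two-sided permutation p = 0.114), and with library size only the call was lost (log2FC -0.13, adjusted p = 0.188). BMPR2, the BMP type II receptor, was at 125, 110, 83.8 and 119 CPM without and 129, 131, 116 and 109 CPM with DOX (log2FC 0.15, SE 0.11, adjusted p = 0.243). Without OMO replicate 3 its log2FC was 0.03. ACVR1 and ACVR1C rose by a log2FC of 0.26 and 0.65. ACVR1B rose by 0.13 (adjusted p = 0.0189), a call lost without the filter on low counts (adjusted p = 0.151).

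The SMAD transcripts that carry the TGF-beta and activin signal did not change detectably, while those of the BMP branch and the inhibitory SMADs did. SMAD2 was at 116, 122, 111 and 118 CPM in OMO and 123, 131, 121 and 118 CPM in OMO+DOX (log2FC 0.08, adjusted p = 0.146). With library size only, SMAD2 passed the threshold (log2FC 0.21, adjusted p = 0.00347). SMAD3 (log2FC -0.03, SE 0.06) and the shared partner SMAD4 (log2FC 0.00, SE 0.06) were not called either, and their direction changed with the scaling. Of the BMP SMADs, SMAD9 rose from 73.6 ± 6.43 to 127 ± 6.31 CPM (log2FC 0.78, SE 0.07, adjusted p = 5.42e-07), SMAD1 rose by a log2FC of 0.35 and SMAD5 fell by a log2FC of 0.33. The ratio of SMAD9 to SMAD5 CPM within a library, which is not scaled by length, went from 0.465 to 0.501 in OMO to 1.0 to 1.12 in OMO+DOX. SMAD5 shares 610 exonic bases with SMAD5-AS1 on the opposite strand.

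The inhibitory SMADs rose together, by unequal amounts. SMAD7 was at 1.16, 1.22, 0.933 and 1.01 CPM in OMO and 2.66, 3.51, 3.18 and 3.80 CPM in OMO+DOX. Low in both groups, it still did not overlap and rose 3.03-fold (log2FC 1.60, SE 0.14, adjusted p = 9.18e-07). SMAD6, whose window holds the SMAD palindrome printed above, was at 11.2, 12.3, 11.9 and 11.6 CPM without and 16.2, 16.4, 16.8 and 17.2 CPM with DOX. Its log2FC was 0.50 (SE 0.05, adjusted p = 3.81e-06).

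All 4 ID genes, which encode helix-loop-helix proteins without a DNA-binding region, were upregulated (all genes 38.5%), with a median log2FC of 1.38. ID3 (ENSG00000117318.9, chr1:23557918-23559794, minus strand) was at 24.3, 31.9, 36.6 and 28.9 CPM in OMO and 99.9, 92.4, 108 and 113 CPM in OMO+DOX. ID3 rose 3.40-fold (log2FC 1.77, SE 0.11, adjusted p = 3.72e-08). ID1 (ENSG00000125968.9, chr20:31605283-31606515, plus strand) was at 20.3, 26.9, 31.7 and 23.6 CPM without and 69.1, 64.7, 74.8 and 79.0 CPM with DOX. The untreated libraries kept the same order for ID1 and ID3, and ID1 rose 2.81-fold (log2FC 1.49, SE 0.12, adjusted p = 2.96e-07). ID2 was at 5.78, 8.42, 8.50 and 7.36 CPM in OMO and 16.3, 18.4, 18.1 and 19.9 CPM in OMO+DOX. Its log2FC was 1.27 (SE 0.11, adjusted p = 7.61e-07). ID4 changed least, from 5.66 ± 0.408 to 8.65 ± 0.790 CPM (log2FC 0.61, SE 0.09, adjusted p = 4.61e-05). OMO replicate 1 was the lowest untreated library for all 4 genes. Per length, the summed ID level was 44.1 to 66.5 CPM per kb in OMO and 150 to 180 CPM per kb in OMO+DOX, of which ID1 and ID3 together made up most in every library.

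**Figure D4:**
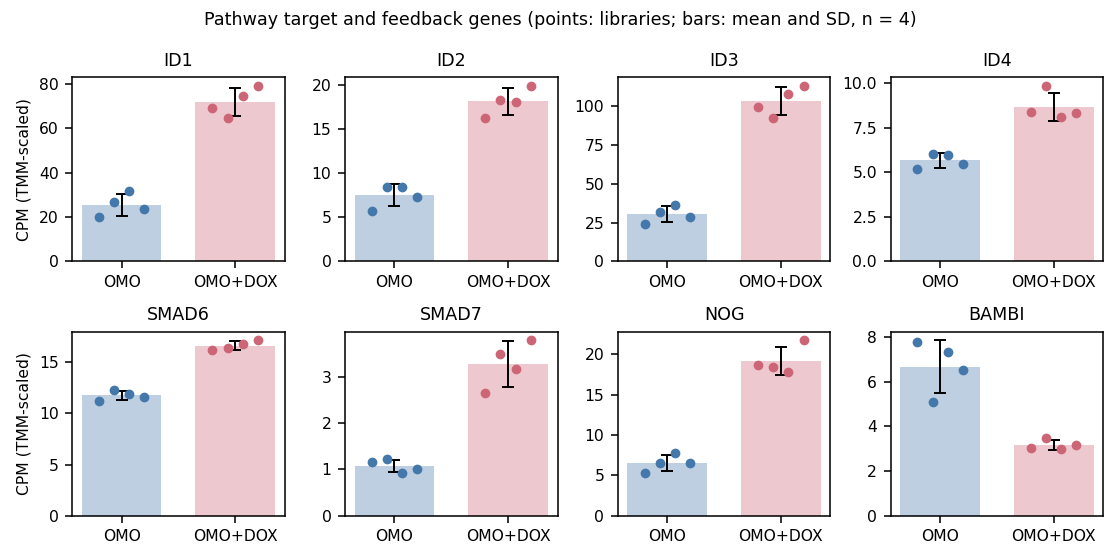
TMM-scaled CPM of the 4 ID genes, the inhibitory SMADs, NOG and BAMBI, with points for libraries and bars and whiskers for the mean and SD (n = 4) on axes that start at 0. The groups do not overlap in any panel, as for 71.7% of all genes tested. BAMBI is the one gene lower with DOX, and ID3 rises from 30.4 to 103 CPM.

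The 17 members that were not tested were low or absent in both groups. GDF2 and GDF10 had 0 counts in all 8 libraries, which allows up to 3 counts per library, or 0.0617 CPM in OMO. BMP15, GDF3, GDF5, GDF7, INHA, INHBA, NODAL and ACVRL1 were low, at a group mean of at most 1.01 CPM. Of the rest, BMP6 had 5 to 14 counts in OMO and 38 to 46 in OMO+DOX, chordin (CHRD) 5 to 7 and 29 to 33, and TGFB2 7 to 15 and 20 to 30. GDF9 and INHBB were lower with DOX in counts, at 52 to 63 and 29 to 46 for GDF9 and at 20 to 33 and 8 to 16 for INHBB. GDF6, with 0 to 1 count in OMO and 6 to 9 in OMO+DOX, was at least 2.67-fold higher against the floor. GDF1 had 78 counts in OMO replicate 1 and 0 elsewhere, and shares 2517 exonic bases with CERS1 on the same strand, so no value is drawn from it.

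Genes of the pathway outside the members were taken from 4 lists chosen from knowledge of the pathway, with earlier results of these data known. Of 61 tested, 33 rose (54.1%, all genes 38.5%) and 19 fell (31.1%, all genes 38.1%), and 4 of the 61 passed the filter through 1 group only. Among 17 extracellular modulators and coreceptors tested, 8 rose and 7 fell (47.1% and 41.2%), shares near those of all genes. The largest rises were KIAA1324L (ELAPOR2), a membrane protein linked to BMP signalling, with a log2FC of 3.39, the kielin/chordin-like KCP with 2.78, and the BMP-binding membrane protein CRIM1 with 1.66. The largest differences downward were those of the nodal antagonists DAND5 (log2FC -2.87) and LEFTY2 (log2FC -2.42), which passed the filter only through the untreated libraries and so had to be lower, and of THBS1, an activator of latent TGF-beta, which went from 451 ± 38.7 to 71.1 ± 2.65 CPM (log2FC -2.66). Of 3 proprotein convertases and proteases tested, PCSK5 rose from 1.93 ± 0.190 to 22.8 ± 0.566 CPM (log2FC 3.55), FURIN rose by a log2FC of 0.28 and PCSK6 fell by a log2FC of 0.13.

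Among 28 intracellular regulators tested, 16 rose and 7 fell (57.1% and 25.0%, all genes 38.5% and 38.1%), and 1 of the 28 changed by an absolute log2FC of at least 1. MAP3K7, the TAK1 kinase of the SMAD-independent branch, rose by a log2FC of 1.19, the kinase HIPK2 by 0.87 and the TAK1-binding TAB3 by 0.83. The ubiquitin ligase NEDD4L fell by a log2FC of 0.70 and the small phosphatases CTDSP1 and CTDSPL by 0.65 and 0.49. Of 13 known targets tested outside the members, 7 rose and 4 fell (53.8% and 30.8%, beside the same shares of all genes). The matricellular CTGF (CCN2) rose from 4.52 ± 0.302 to 44.0 ± 2.44 CPM (log2FC 3.28) and the cell cycle inhibitor CDKN1A rose by a log2FC of 1.11, while the BMP-regulated SMOC1 fell from 188 ± 12.8 to 23.7 ± 1.47 CPM (log2FC -2.99), HEY1 fell by 1.95 and ATOH8 by 0.87. CDKN2B, another such inhibitor, had a log2FC of 3.0 but passed the filter only through the treated libraries and so had to be higher.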

How the data were processed

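PolyA+ RNA of 4 OMO and 4 OMO+DOX libraries was analysed, and groups were taken from the labels. The study describes the replicates as biologically independent, which the labels do not state, so p-values measure the spread between these libraries. The members and lists were chosen with earlier results of these data known. Paired reads of a stranded kit were trimmed (Trim Galore) and aligned (STAR, GRCh38, GENCODE 32) by the authors, who deposited RSEM expected counts, not normalized, in which reads shared by several genes are divided. After rounding to integers, the genes above 1 CPM in 4 or more libraries were fitted with edgeR 4.0.16 (R 4.3.3, TMM, quasi-likelihood test, Benjamini-Hochberg, no covariate). CPM are scaled by TMM. Standard errors are the absolute log2FC over the square root of F. Floors (3 counts) cover counting error only. Symbols and lengths (the median of a gene's basic protein-coding transcripts, on which values per kb depend) are from GENCODE 29, which matched 58561 of 60668 identifiers (96.5%). On simulated data the test recovered 99 of 100 genes changed by a log2FC of 1 and 100 of 100 changed by 2, with 7 false calls among 15222 genes. No other gene was changed there, whereas 76.6% of genes were called in the data. The simulation therefore does not test the scaling or false calls at that extent of change. Exact permutation tests cannot go below p = 0.0286. Every tested member but 1, which is not reported here, is named, and library values are given for those with an absolute log2FC of at least 1 and, chosen after their values were seen, for 5 others. Of each added list, the 3 largest rises and falls are named. The alternatives were DESeq2 size factors, library size only, the DESeq2 1.42.0 Wald test, edgeR's likelihood ratio test, 2 other filters, a replicate block and each replicate left out.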

Additional observations from a re-analysis of the deposited data

Results flagged for a closer look

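Within a group of 4 libraries, 5 of 94 groups checked held a library whose gap to the nearest other library exceeded Dixon's 95% critical value, where chance gives about 4.7. BMPR1A stood at 79.9 CPM in OMO+DOX replicate 4 and at 86.9 to 87.0 CPM in the other treated libraries. TGFBR2 was at 6.79 CPM in OMO replicate 3 beside 7.80 to 7.86 CPM in the other untreated libraries. ID4 was at 9.82 CPM in OMO+DOX replicate 2 beside 8.09 to 8.38 CPM. INHBC was at 1.27 CPM in OMO+DOX replicate 2 beside 0.885 to 0.922 CPM. BMP8A, which shares reads with BMP8B, was at 4.48 CPM in OMO+DOX replicate 4 beside 5.74 to 5.89 CPM.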

How the results depend on the processing

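Across all alternatives, 702 of 717 log2FC values of the 48 tested members kept their direction and side of the threshold, 2 were weaker, 3 stronger and 10 reversed, the last in SMAD3, SMAD4 and LTBP3, none of which was called. SMAD4 was at -0.0011 with DESeq2 size factors and with the DESeq2 Wald test, -0.0254 without the filter on low counts, and between -0.0496 and 0.0255 with a replicate left out. With library size only, SMAD3 was at 0.10 and LTBP3 at 0.11, and LTBP3 ranged from -0.0583 to 0.0389 with a replicate left out. The median log2FC of the members was 0.61 with library size only, and 0.46 to 0.49 with a replicate left out. At the thresholds of the study's methods 6 members were higher without a filter on low counts, and 3 to 4 with a replicate left out. When at least 5 libraries had to exceed 1 CPM, which removes BMP3 and BMP5, 1 was higher. Under that stricter filter 27 members were higher and 12 lower at an adjusted p below 0.05. Same-numbered libraries showed little shared deviation (r from -0.176 to 0.241, mean 0.0913, beside a mean of -0.033 for other pairs). Such weak correlations cannot exclude that the numbers pair the samples. With the replicate block 30 members were higher and 12 lower, as without it. Counts do not set a level of protein or signalling, and members that the filter left out have no test in the report, although without a filter 33 members were higher and 15 lower.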
